A study of Mus musculus with 16 samples.

Results

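The cytochrome P450 genes of the mouse, and Por, the reductase that passes electrons to most of them, were followed in lung RNA of untreated and ovalbumin-challenged mice on Illumina mouse BeadChips. The set holds every probe whose annotated symbol is Cyp followed by a number, a letter and a number, plus the probes for Por. These were 101 of 25697 probes, for 72 P450 genes and Por. Of these 73 genes, 26 lay above background and were tested, and 47 did not.

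The 16 arrays formed 4 groups of 4 female C57BL/6N mice, each 17 weeks old, with 1 array of lung RNA per mouse. They were wild-type or mutant mice, either left untreated or challenged with ovalbumin. The mutants are labelled as knockouts of Cox4-2, an isoform of a cytochrome c oxidase subunit whose gene the array names Cox4i2. Challenged mice were injected in the abdomen with 10 µg ovalbumin in 2 mg alum and then breathed a 1% ovalbumin aerosol on 3 occasions of 30 min. Whether the untreated mice had been sensitised cannot be read from the labels. RNA came from lung tissue that mixes many cell types, so fewer cells of a type and less RNA per cell cannot be told apart.

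P450 enzymes are haem proteins that insert 1 oxygen atom into fats, steroids, drugs and airborne chemicals, and most sit in the endoplasmic reticulum, where Por supplies their electrons. In mouse lung the enzymes of foreign chemicals are known above all from club cells, the secretory cells of the small airways. Members of the Cyp4 family hydroxylate the far end of fatty acids and of leukotrienes. Cyp7b1, Cyp8b1, Cyp27a1 and Cyp39a1 act in the metabolism of cholesterol and bile acids.

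Several P450 genes that were lower after challenge lie together on chromosome 7. In the RefSeq gene order of GRCm38.p6, the stretch from Cyp2s1 to Cyp2f2 holds 17 protein-coding genes, of which 10 are in the set and 6 were above background, Cyp2s1, Cyp2b10, Cyp2b23, Cyp2g1, Cyp2a5 and Cyp2f2. The last 120 bases before the RefSeq start of the 4 of them that were lower in challenged wild-type mice are shown 5′ to 3′ on the gene's strand, because 3 of them share 8 bases, given in capitals.
Cyp2b10 (chr7:25897538-25897657, plus strand): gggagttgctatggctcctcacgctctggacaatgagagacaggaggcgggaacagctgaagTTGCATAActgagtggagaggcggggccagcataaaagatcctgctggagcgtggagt
Cyp2b23 (chr7:26686431-26686550, minus strand): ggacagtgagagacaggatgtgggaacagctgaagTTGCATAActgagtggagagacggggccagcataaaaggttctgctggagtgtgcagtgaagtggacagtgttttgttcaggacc
Cyp2a5 (chr7:26835219-26835338, plus strand): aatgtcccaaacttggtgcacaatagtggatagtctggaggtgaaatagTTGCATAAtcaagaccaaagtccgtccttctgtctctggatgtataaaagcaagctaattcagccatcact
Cyp2f2 (chr7:27119835-27119954, plus strand): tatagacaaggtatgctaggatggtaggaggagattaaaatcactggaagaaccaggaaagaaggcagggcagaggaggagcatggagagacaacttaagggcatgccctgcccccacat
The capitals mark TTGCATAA, which is absent from the Cyp2f2 window. It begins at position -58 in Cyp2b10, -85 in Cyp2b23 and -71 in Cyp2a5, counted from each RefSeq start. It fits the pattern TTGCNNAA, in which N is any base, a form of the site that C/EBP factors bind. On either strand, TTGCATAA was found in 244 of the 32851 RefSeq promoters (0.743%), each taken from 250 bases before to 50 bases after the start. Among the 21 tested genes that have a promoter there, it was found in 3. The word was taken from these same promoters, so that count was fixed in advance and supports nothing. The promoters of Cyp2b10 and Cyp2b23 were alike beyond these bases, with 173 of 273 overlapping bases identical (63.4%) when laid side by side without gaps. They matched best at an offset of 27 bases, so the positions -58 and -85 depend on where RefSeq sets each start. The other pairs among the 4 reached 31.5% to 35.3%. TTGCNNAA itself was found in 5 of the 21 genes, the others being Cyp20a1 and Cyp2j9, against 10.8% of all promoters. That count holds the same 3 genes from which the word was taken. Of other motifs searched on both strands, GCGTG, the core bound by the aryl hydrocarbon receptor, was found in 8 of the 21 (32.4% of all promoters). TGTTCT, part of the site that steroid receptors bind, was found in 3, Cyp2b23, Cyp2f2 and Cyp4b1 (19% of all). TATAAA was found in 4 (13.6% of all), and the forkhead core TGTTTAC in 0 (3.65% of all). These matches describe letters in a window and show no binding.

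The arrays were first checked for genotype and for tissue. Cox4i2 read 247 to 372 in untreated wild type and 77.5 to 189 in untreated mutants, which did not overlap, and 182 to 305 against 104 to 243 after challenge, which did. The array labelled mutant challenged 4 read 243, within the wild-type range, while the other challenged mutants read 104 to 124. It was kept in its labelled group, and without it 6 of the 9 P450 calls in mutants after challenge remained. Over both treatments it was lower in mutants by 0.79 on the log2 scale (SE 0.17, n = 8 against 8), with a limma adjusted p of 0.0879, and the sources used here do not place its probe relative to the deletion. Wild-type challenged arrays 1 and 3 and mutant challenged array 2 stood apart, with skeletal muscle, squamous epithelium and fat genes far above the rest. Acta1 of skeletal muscle read 14616, 16798 and 7832 there and at most 148 elsewhere, and Krt13 of squamous epithelium read 3965, 3988 and 2263 there and at most 75.5 elsewhere. Where leaving out these 3 arrays changed a call, the value without them is given. For wild type such a value rests on challenged arrays 2 and 4, the ones poorest in fat genes. Of 15 hepatocyte genes, 11 were not measured above background, among them the defining genes Alb, Apoa1 and Ttr.

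Above background means an intensity over 16.8, the percentile 95 of the noise estimated from values under 0, and a gene was tested when its probe passed on at least 4 of the 16 arrays. By this measure 23 genes were above background on all 16 arrays, 3 on 4 to 15 (Cyp11b2, Cyp2g1 and Cyp39a1), 5 on 1 to 3, and 42 on none. In wild type 23 genes passed on all 4 arrays of the group both untreated and challenged, and in mutants 24 did so in each state. The Cyp4f subfamily was the most widely detected of those with several genes, with 5 of 6 above background. Of the drug-metabolising subfamilies, 2 of 8 Cyp2d, 2 of 5 Cyp2b, 1 of 5 Cyp2j, 1 of 5 Cyp3a and 1 of 2 Cyp2a genes passed. None of the 10 Cyp2c, 2 Cyp1a or 2 Cyp4a genes did, nor the genes of steroid hormone synthesis Cyp11a1, Cyp17a1, Cyp19a1 and Cyp21a1, nor the retinoic acid hydroxylases Cyp26a1 and Cyp26b1. A gene that did not pass is not shown to be absent, since it may lie under the noise of the array.

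**Figure D1:**
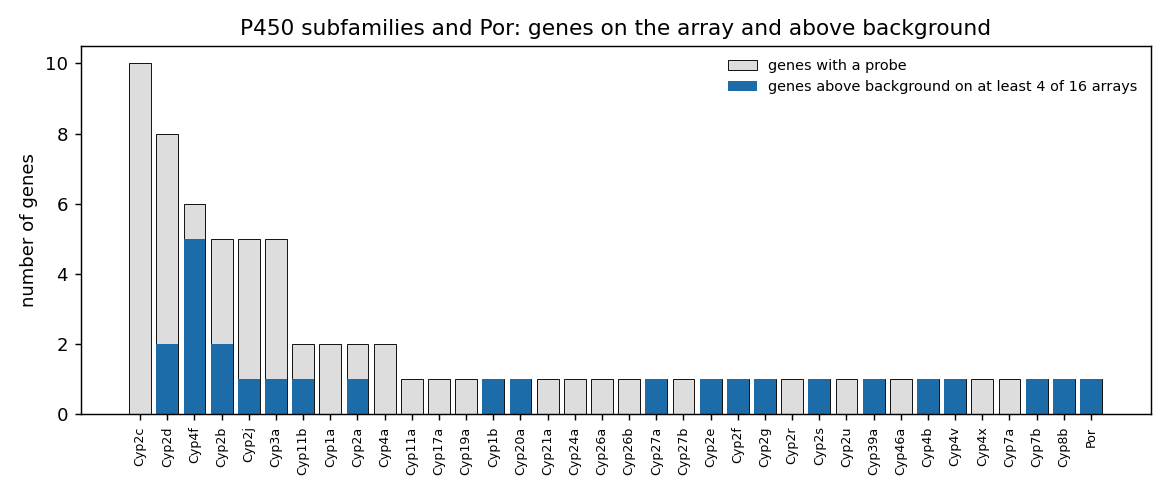
Number of genes with a probe (grey bars) and number tested as above background on at least 4 of 16 arrays (blue bars), for each P450 subfamily and for Por. Cyp4f had 5 of 6 genes above background and Cyp2c 0 of 10.

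After challenge, more P450 genes were lower than higher in wild-type mice. Of 26 genes, 8 passed an adjusted p of 0.05 in limma with Benjamini-Hochberg adjustment over all 11747 features tested, 7 lower and 1 higher. Across all features 17.7% were called, 8.3% higher and 9.38% lower, against 30.8%, 3.85% and 26.9% of the P450 set. The lower genes were Cyp2b10, Cyp2b23, Cyp2f2, Cyp2a5, Cyp4b1, Cyp2d22 and Cyp27a1, and the higher one was Cyp4f18. In mutants 9 of 26 passed, 6 lower and 3 higher, against 23.9% of all features, 11.6% lower and 12.2% higher. The lower genes there were Cyp2b10, Cyp2b23, Cyp4b1, Cyp2d22, Cyp27a1 and Cyp8b1, and the higher ones Cyp4f18, Cyp4f39 and Cyp4f13. Thus 6 genes were called in both genotypes, 5 lower and 1 higher, while 15 were called in neither. The median log2 change of the 26 was -0.31 in wild type and -0.07 in mutants, beside -0.01 and 0.01 for all features. The groups of 4 did not overlap for 7 lower genes and 1 higher in wild type (9.76% and 8.16% of all features), and for 5 lower and 3 higher in mutants (14.6% and 14.9%). An unadjusted p under 0.05 was reached by 13 in wild type (50%, beside 32.4% of all features) and 11 in mutants (42.3%, beside 37.6%).

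**Figure D2:**
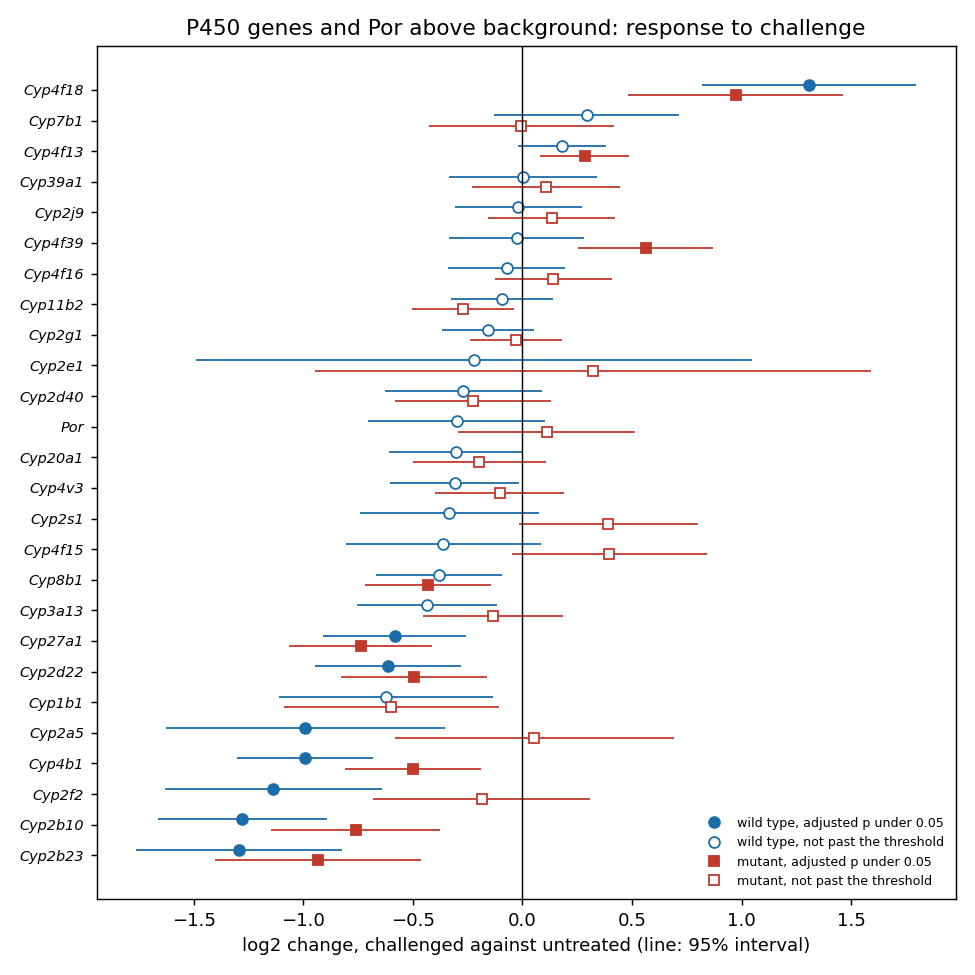
Log2 change of each tested P450 gene and Por after challenge (challenged minus untreated, n = 4 against 4 arrays) in wild type (blue circles) and mutant mice (red squares), with the 95% interval of the limma fit. Filled points passed an adjusted p of 0.05, 8 in wild type and 9 in mutants, and Cyp4f18 lies highest in both.

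Log2 values were formed after a background model that in effect adds about 40.8 to each intensity, so that the fold change of a dim gene is understated. Cyp2f2, the club cell enzyme that activates naphthalene, read 32045, 28722, 15058 and 24498 in untreated and 12014, 13281, 13281 and 6762 in challenged wild-type mice. Mutant mice read 15562, 23788, 17975 and 21481 untreated and 15562, 14496, 19829 and 19007 challenged. All 4 challenged wild-type arrays were below every untreated wild-type array, whereas the mutant groups overlapped. The wild-type change was -1.14 on the log2 scale (2.2-fold lower, SE 0.23, limma adjusted p 0.00398, exact permutation p 0.0286, the smallest that 4 against 4 allow). In mutants it was -0.19 (95% interval -0.68 to 0.31, adjusted p 0.599).

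Both Cyp2b genes were lower after challenge in both genotypes. Cyp2b10, the mouse enzyme known for its induction by phenobarbital through the receptor Nr1i3, read 3749, 4540, 4572 and 5394 in untreated and 1788, 1595, 2279.5 and 1764 in challenged wild type. In mutants it read 3854, 5405, 4377 and 5511 untreated and 2481, 1990.3, 3981 and 3021 challenged. The wild-type groups were far apart, and 1 challenged mutant array, the third, lay above the lowest untreated one. The log2 changes were -1.28 in wild type (2.43-fold lower, SE 0.18, limma adjusted p 0.000321, exact p 0.0286) and -0.76 in mutants (1.69-fold lower, SE 0.18, adjusted p 0.00753, exact p 0.0571). Cyp2b23, from the same stretch of chromosome 7 and with the similar promoter, read 237, 267, 461 and 309 in untreated and 69, 80.9, 179 and 101 in challenged wild type, and 398, 403, 259 and 390.2 and 143, 122, 219 and 202 in the mutant groups. Neither pair of groups overlapped, and the changes were -1.29 (SE 0.22, limma adjusted p 0.00124) and -0.93 (SE 0.22, adjusted p 0.00728), each with an exact p of 0.0286.

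Cyp2a5, which hydroxylates coumarin and nicotine, read 812, 1025, 404 and 719.5 in untreated and 435, 361, 308 and 255 in challenged wild type. Mutants read 363, 565, 687 and 676 untreated and 795, 277, 799 and 624 challenged, with arrays 1 and 3 of the challenged mutants above every untreated mutant and array 2 below every one. The third untreated wild-type array lay within the challenged range, so the wild-type groups overlapped. The wild-type change was -0.99 (SE 0.30, limma adjusted p 0.0315, exact p 0.0571), and the call did not hold with 3 of 14 alternative settings or without 6 of the 16 arrays, taken 1 at a time. The mutant change was 0.05 (95% interval -0.58 to 0.69). The RefSeq order puts Cyp2a4 and Cyp2a22, close relatives, in the same stretch, no probe of the set bears their names, and whether the Cyp2a5 probes also read their RNA was not tested.

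The other genes of the chromosome 7 stretch did not pass the test. Cyp2s1, an enzyme of epithelia that acts on retinoids and fatty acid products, read 2448, 1776, 1074 and 1728 in untreated and 1171, 1520.5, 1144 and 1535 in challenged wild type, and 1349, 1516, 1151 and 1295 and 1738, 1345, 1951 and 2033 in mutants. Its changes of -0.33 and 0.39 had limma adjusted p of 0.245 and 0.15. Of the 6 measured genes in the stretch, 4 were called lower in wild type and 2 in mutants, beside 9.38% and 11.6% of all features. The stretch was described because genes in it were lower in these same data, so these counts support nothing. Cyp2g1, 1 of the 6, was above background on 0 wild-type arrays.

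Within each group the array lowest in Cyp2f2 was also the lowest in club cell genes, while across groups the order matched only in part. The club cell list of 14 measured genes, given as the mean log2 value relative to untreated wild type, scored 0.25, 0.12, -0.37 and 0.01 on the untreated wild-type arrays and -0.24, -0.01, -0.19 and -0.58 on the challenged ones. The lowest untreated wild-type array, the third, was also the lowest of its group for Cyp2f2, Cyp2a5, Cyp2s1, Cyp4f15 and Por. The lowest challenged array, the fourth, had the lowest score and the lowest Cyp2f2 of all 16, and untreated wild-type array 1 the highest of both. Against this order, the third untreated array scored below challenged wild-type arrays 1 to 3 but read higher in Cyp2f2, at 15058 against 12014 to 13281. In mutants the scores were -0.33, -0.07, -0.21 and 0.02 untreated and 0.08, -0.15, 0.10 and -0.04 challenged. In wild type 5 of the 14 were lower and 1 higher after challenge, with a median of -0.30, Hp (-1.16, limma adjusted p 2.77e-05) and Scgb3a2 (-1.01, adjusted p 0.00751) among the lower. In mutants 1 was lower and 3 higher, with a median of -0.05. Of all features, 9.38% were lower and 8.3% higher in wild type, and 11.6% and 12.2% in mutants. Scgb1a1, the main club cell secretory protein, read 38908 to 45524 on all arrays, near the top of the scale, and did not pass in either genotype (limma adjusted p 0.846 and 0.508). The part of club cell number in the P450 values was not tested.

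**Figure D3:**
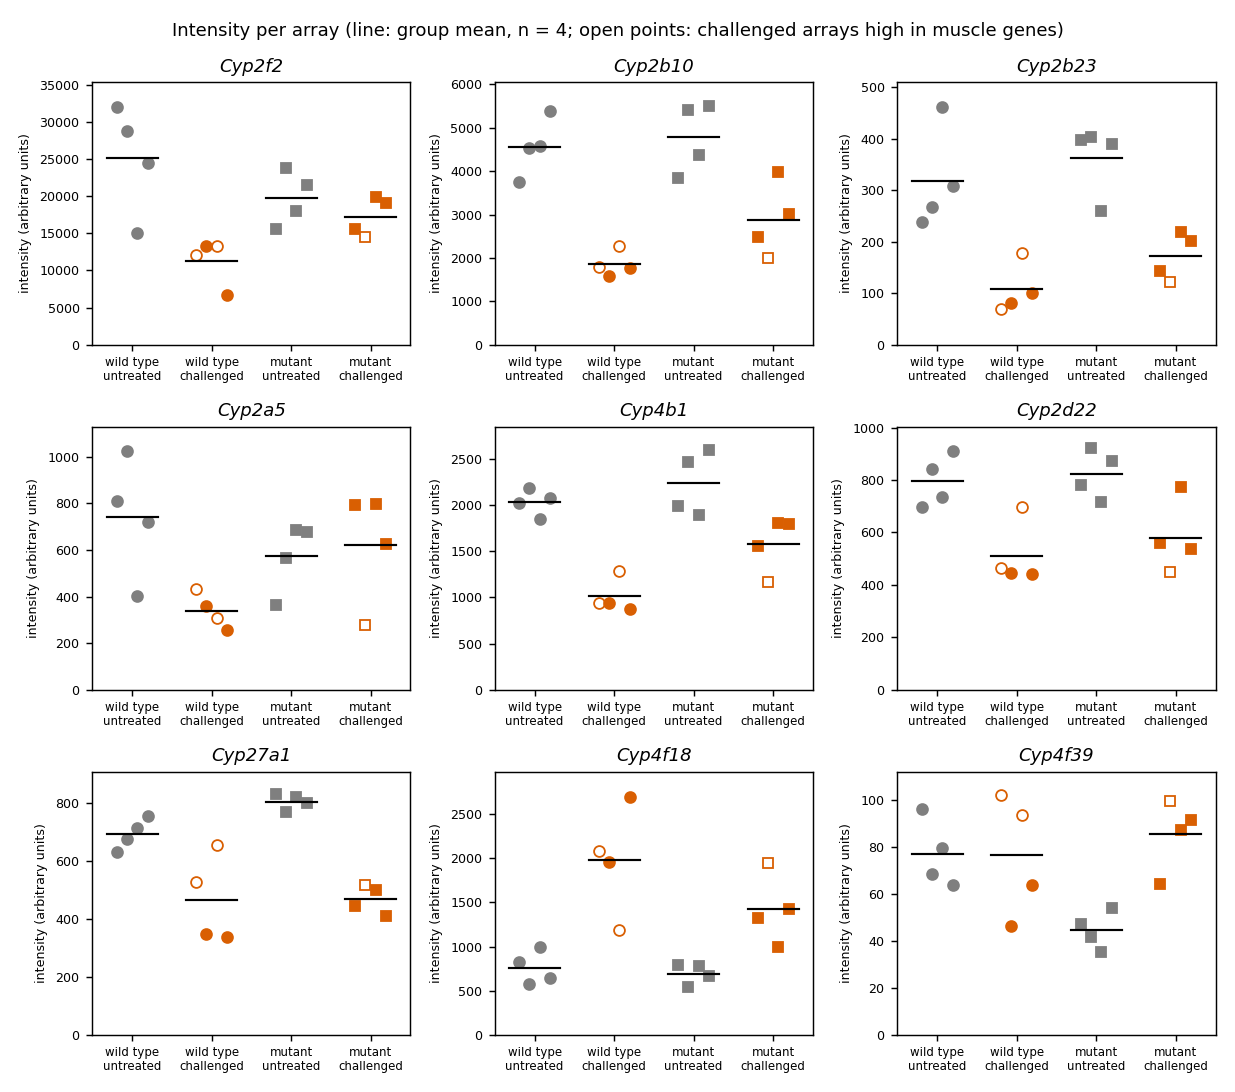
Intensity of 9 P450 genes on each array (arbitrary linear units, axes from 0), by group, with the mean of 4 arrays as a line. Open points are the 3 challenged arrays high in skeletal muscle genes. Cyp2f2, Cyp2b10, Cyp2b23, Cyp4b1, Cyp2d22 and Cyp4f18 do not overlap between untreated and challenged wild type.

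Outside chromosome 7, Cyp4b1 and Cyp2d22 were lower in both genotypes. Cyp4b1, a lung enzyme known for activating the toxin ipomeanol, read 2024, 2179, 1844 and 2074 in untreated and 942, 938, 1281 and 878 in challenged wild type. Mutants read 1994, 2462, 1893 and 2595 untreated and 1556, 1164, 1807 and 1789.7 challenged, so that neither pair overlapped and the challenged mutants lay mostly between. The log2 changes were -0.99 (1.99-fold lower, SE 0.15, limma adjusted p 0.000409) and -0.50 (1.41-fold lower, SE 0.15, adjusted p 0.0222), each with an exact p of 0.0286. The mutant change of Cyp4b1 was -0.36 both without the 3 arrays high in muscle genes (adjusted p 0.0415) and without mutant challenged array 2 alone (adjusted p 0.0759, no longer called). Cyp2d22, a mouse relative of the human drug enzyme CYP2D6, read 699, 841, 734 and 911 and then 463, 446, 697 and 442 in wild type, and 781, 920.5, 717 and 873 and then 561, 450.2, 774 and 535 in mutants. In wild type the challenged arrays were all lower, the third by little, and in mutants the third challenged array lay among the untreated ones. The changes were -0.62 (SE 0.16, limma adjusted p 0.0135, exact p 0.0286) and -0.49 (SE 0.16, adjusted p 0.0315, exact p 0.0571). Without the 3 arrays high in muscle genes the mutant value was -0.39 (adjusted p 0.0519).

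Among the enzymes of cholesterol and bile acids, Cyp27a1 was lower in both genotypes. Cyp27a1, the mitochondrial hydroxylase of the cholesterol side chain, read 632, 675, 715 and 755 in untreated and 527, 346, 656 and 336 in challenged wild type. Mutants read 831, 768, 821 and 799.5 untreated and 443, 518, 500.1 and 411 challenged, 2 ranges far apart. In wild type the third challenged array, 1 of those high in muscle genes, lay within the untreated range. The changes were -0.58 (SE 0.15, limma adjusted p 0.0159, exact p 0.0571) and -0.74 (SE 0.15, adjusted p 0.00344, exact p 0.0286). Without the 3 arrays they were -0.94 (adjusted p 0.000101, resting on wild-type challenged arrays 2 and 4) and -0.78 (adjusted p 0.000262).

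Cyp8b1, which directs bile acid synthesis towards cholic acid in liver, was dim. It read 81.3, 56.8, 55.6 and 81.8 and then 61.2, 43.2, 41.7 and 28.5 in wild type, and 90.9, 50.3, 60.5 and 66.8 and then 39.3, 46.4, 41.3 and 27.8 in mutants, where the groups did not overlap. The changes were -0.38 (limma adjusted p 0.0616) and -0.43 (adjusted p 0.0295). Without the 3 arrays both passed, at -0.51 (adjusted p 0.0343, resting on wild-type challenged arrays 2 and 4) and -0.48 (adjusted p 0.026). The oxysterol hydroxylases Cyp7b1 (190 to 495 over the 16 arrays) and Cyp39a1 (7.32 to 39.3) changed by 0.29 and 0.00 in wild type and by -0.01 and 0.11 in mutants, none past the threshold. Cyp11b2, known as the aldosterone synthase of the adrenal gland, stayed near the noise, at 5.30 to 29.6. Its tested probe changed by -0.09 in wild type and -0.27 in mutants, and a second dim probe by 0.44 and -0.01, none past the threshold. The tested probe is nevertheless counted among those without overlap after challenge in mutants and between untreated genotypes.

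The Cyp4f genes, which hydroxylate leukotrienes and fatty acids, held all 3 members that rose. Cyp4f18, a leukotriene hydroxylase of mouse neutrophils, read 824, 579, 994 and 643 in untreated and 2087, 1959, 1187 and 2701 in challenged wild type. Mutants read 791, 536, 777 and 670.3 untreated and 1329, 1944, 1000.1 and 1422 challenged. Every challenged array exceeded every untreated array of the 4 groups. The changes were 1.31 (2.48-fold higher, SE 0.23, limma adjusted p 0.00147) and 0.97 (1.96-fold higher, SE 0.23, adjusted p 0.0072), each with an exact p of 0.0286. The probe tested carries another symbol, LOC100044439, in a deposited table of the authors, and the gene has a second probe that was also called, at 0.97 and 0.94. The eosinophil list, with 5 of 9 genes measured, had 1 gene higher and 0 lower in wild type (Alox15, 1.28, limma adjusted p 0.00462) and 0 in mutants. Beside this, 8.3% of all features were higher and 9.38% lower in wild type, and 12.2% and 11.6% in mutants.

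The Cyp4f39 and Cyp4f13 genes lie in a second stretch, on chromosome 17, of 12 protein-coding genes with 5 of the set, 4 of them above background. Cyp4f39, which in mouse makes the long-chain lipids of the skin barrier, read 96, 68.2, 79.5 and 63.6 and 102, 46.1, 93.4 and 63.8 in untreated and challenged wild type. In mutants it read 47.2, 41.7, 35.1 and 53.7 and 64, 99.2, 86.9 and 91.2. The mutant groups did not overlap, with the untreated mutants the lowest of the 4 groups, and the 3 highest readings after challenge were on the arrays high in muscle and squamous genes. The mutant change was 0.56 (SE 0.15, limma adjusted p 0.0111, exact p 0.0286) and 0.51 (adjusted p 0.0116) without those arrays, while wild type gave -0.03 (adjusted p 0.921) and -0.30 (adjusted p 0.158).

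Cyp4f13 read 697, 638, 591 and 677 and 807, 846, 618 and 716 in wild type, and 614, 641, 669 and 614 and 797, 779, 719.5 and 831 in mutants. Its mutant groups did not overlap, and the small change of 0.28 (1.22-fold, SE 0.10, limma adjusted p 0.04) lost its call without any 1 of 8 of the 16 arrays. Wild type gave 0.18 (adjusted p 0.201). Cyp4f15 read 122, 132, 48.1 and 106 and 65.7, 87.5, 40.7 and 79.7 in wild type and 58.5, 96.1, 55.8 and 90.1 and 99.9, 82.6, 101 and 168 in mutants, with changes of -0.36 and 0.40 (limma adjusted p 0.248 and 0.182). Cyp4f16 read 177 to 312 and Cyp4v3, a fatty acid hydroxylase whose human counterpart is lost in a retinal dystrophy, 563 to 1105. Neither passed in either genotype.

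Among the challenged arrays, those that stood apart read highest for Cyp2e1 and Cyp1b1, but above the untreated arrays for Cyp2e1 alone. Cyp2e1, the ethanol-oxidising P450, read 150.4, 283, 199 and 319 in untreated and 616, 49.3, 496 and 50.2 in challenged wild type. Mutants read 151, 194, 223 and 242 untreated and 146, 868, 263 and 119 challenged. The 3 highest values belonged to wild-type challenged arrays 1 and 3 and mutant challenged array 2, and the lowest to wild-type challenged arrays 2 and 4. The fat cell gene Adipoq was ordered likewise at the extremes, at 2059 and 1823 on arrays 1 and 3 and 1463 on the mutant array, at 30.0 and 18.1 on arrays 2 and 4, and at 96.6 to 235 on the other 11. With all arrays the Cyp2e1 changes of -0.22 (95% interval -1.49 to 1.05) and 0.32 (95% interval -0.95 to 1.59) were not called (limma adjusted p 0.833 and 0.735). Without the 3 arrays the wild-type value was -1.58 (adjusted p 0.00126), resting on arrays 2 and 4, the ones poorest in fat genes, and the mutant value was -0.21 (adjusted p 0.552). Of 8 measured fat genes, 1 was higher and 1 lower in wild type and 0 and 1 in mutants. Among all features, 8.3% were higher and 9.38% lower in wild type, and 12.2% and 11.6% in mutants. The part of fat tissue in the Cyp2e1 values was not tested further.

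Cyp1b1, which oxidises oestradiol and polycyclic hydrocarbons, read 333, 299, 226 and 309 and 279.9, 150.0, 233 and 84.5 in wild type, and 303, 269, 362 and 302 and 140.0, 279, 186 and 173 in mutants. In each genotype the challenged arrays high in muscle genes were the highest of their group, yet within the untreated range of that genotype. The changes were -0.62 and -0.60 (limma adjusted p 0.0717 and 0.0702). Without the 3 arrays both passed, at -1.09 (adjusted p 0.00104) and -0.76 (adjusted p 0.00476). The wild-type value then rested on challenged arrays 2 and 4, the ones poorest in fat genes.

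**Figure D4:**
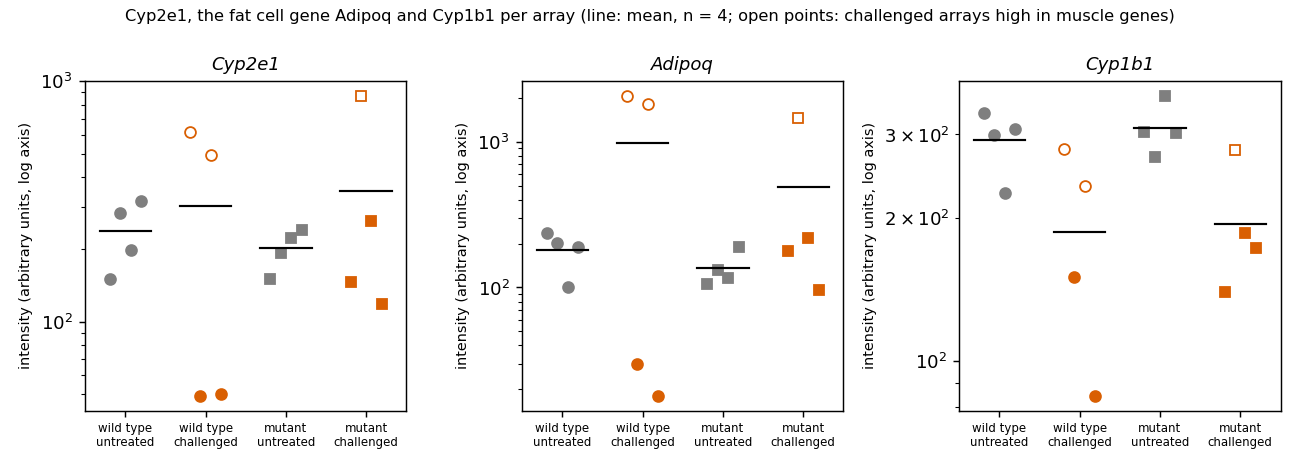
Intensity of Cyp2e1, of the fat cell gene Adipoq and of Cyp1b1 on each array (arbitrary units, log axes), by group, with the mean of 4 arrays as a line and the 3 challenged arrays high in muscle genes as open points. In all 3 panels the open points are the highest challenged arrays of their genotype, and wild-type challenged arrays 2 and 4 are the lowest for Cyp2e1 and Adipoq.

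Por read 1486, 1151, 698 and 1226 in untreated and 796, 1077, 724 and 994 in challenged wild type. In mutants it read 776, 931, 1099 and 1002 untreated and 959, 847, 1068 and 1262 challenged. All groups overlapped, and the changes of -0.30 (95% interval -0.70 to 0.10) and 0.11 (95% interval -0.29 to 0.51) were not called (limma adjusted p 0.292 and 0.712). The remaining tested genes did not pass in either genotype. Cyp3a13, of the drug-metabolising Cyp3a subfamily, came close in wild type, at 72.4, 105, 73.5 and 88.6 untreated and 54.2, 38.6, 65.1 and 50.4 challenged, without overlap (-0.44, SE 0.15, limma adjusted p 0.0549). Its second probe above background gave -0.46 and passed when each of the 15869 probes was tested on its own (adjusted p 0.0443), and -0.35 in mutants (adjusted p 0.0986). Cyp20a1, an orphan P450 with no agreed substrate, read 85.7 to 194 over the 16 arrays, Cyp2j9 109 to 186, Cyp2d40 17.3 to 74.5 and Cyp2g1, known from olfactory mucosa, -0.456 to 29.5.

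Of the tested genes, 9 had more than 1 probe above background. The 3 probes for Cyp27a1 were all lower and called in both genotypes. The 3 for Cyp2a5 gave -0.85, -1.14 and -0.99 in wild type, 2 of them called, and -0.20, -0.44 and 0.05 in mutants. For Cyp2b10 the second, dimmer probe gave -0.20 and -0.24, neither called (limma adjusted p 0.400 and 0.256 over 15869 probes). For Cyp4f18 the third, dim probe gave 0.04 in wild type (adjusted p 0.904) and 0.55 in mutants (adjusted p 0.0251).

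Genotype alone moved no P450 gene past the threshold. In untreated mice 0 of 26 passed in limma, as did 0% of all features, and 2 had an unadjusted p under 0.05 (7.69%, beside 12.1% of all features), Cyp4f39 and Cyp2g1. Cyp2g1 passed the background limit on 6 mutant arrays and on 0 wild-type arrays, so the filter favoured that direction, and its place in this and the next counts supports nothing. The untreated groups did not overlap for 3 genes higher and 1 lower in mutants (3% and 4.09% of all features), and the challenged groups for 2 higher and 0 lower (3.79% and 2.77%). In challenged mice 0 passed, beside 0.017% of all features, and 7 had an unadjusted p under 0.05 (26.9%, beside 12.3%). These were Cyp4b1, Cyp2g1, Cyp2b10, Cyp2f2, Cyp2b23, Cyp2a5 and Cyp4f15, all higher in challenged mutants than in challenged wild type. Over both treatments 0 passed (0.0255% of all features) and 4 had an unadjusted p under 0.05 (15.4%, beside 12.3%). The median difference of the 26 was 0.01 untreated and 0.15 challenged, beside 0.00 and 0.02 for all features.

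The mean of challenged mutants lay between the untreated means and that of challenged wild type for Cyp4b1, Cyp2b10, Cyp2f2, Cyp2b23 and Cyp2d22. By little, Cyp27a1 did likewise, while Cyp2a5 and Cyp8b1 did not. Members called in neither genotype, such as Cyp20a1, Cyp3a13 and Cyp4v3, also had this order. Cyp4b1 was 0.62 higher on the log2 scale in challenged mutants (SE 0.15, 95% interval 0.31 to 0.93, limma adjusted p 0.143, exact p 0.0571). Without the 3 arrays the difference was 0.89 and passed (adjusted p 0.0122), with 2 wild-type and 3 mutant challenged arrays left. For Cyp2b10 it was 0.58 (95% interval 0.20 to 0.97, adjusted p 0.23) and for Cyp2f2 0.64 (95% interval 0.14 to 1.14, adjusted p 0.292, exact p 0.0286, without overlap of the challenged groups). Cyp2g1 was dim, at 12.4, 11, 9.59 and 10 in untreated wild type and 29.5, 19.6, 19.2 and 16.7 in untreated mutants, and 6.84, 3.94, 12.5 and -0.456 and 11.8, 24.8, 23 and 20 after challenge. It passed the background limit on 0, 3, 0 and 3 arrays of these groups. A second Cyp2g1 probe, above background on 0 arrays, did not show this difference. Its means in wild type and mutants were 3.66 and 3.62 untreated and 8.60 and 1.37 after challenge. Since Cyp2g1 was tested through mutant arrays alone, its place in the counts of p-values and its interval support nothing. Its difference between genotypes is therefore given here as values.

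**Figure D5:**
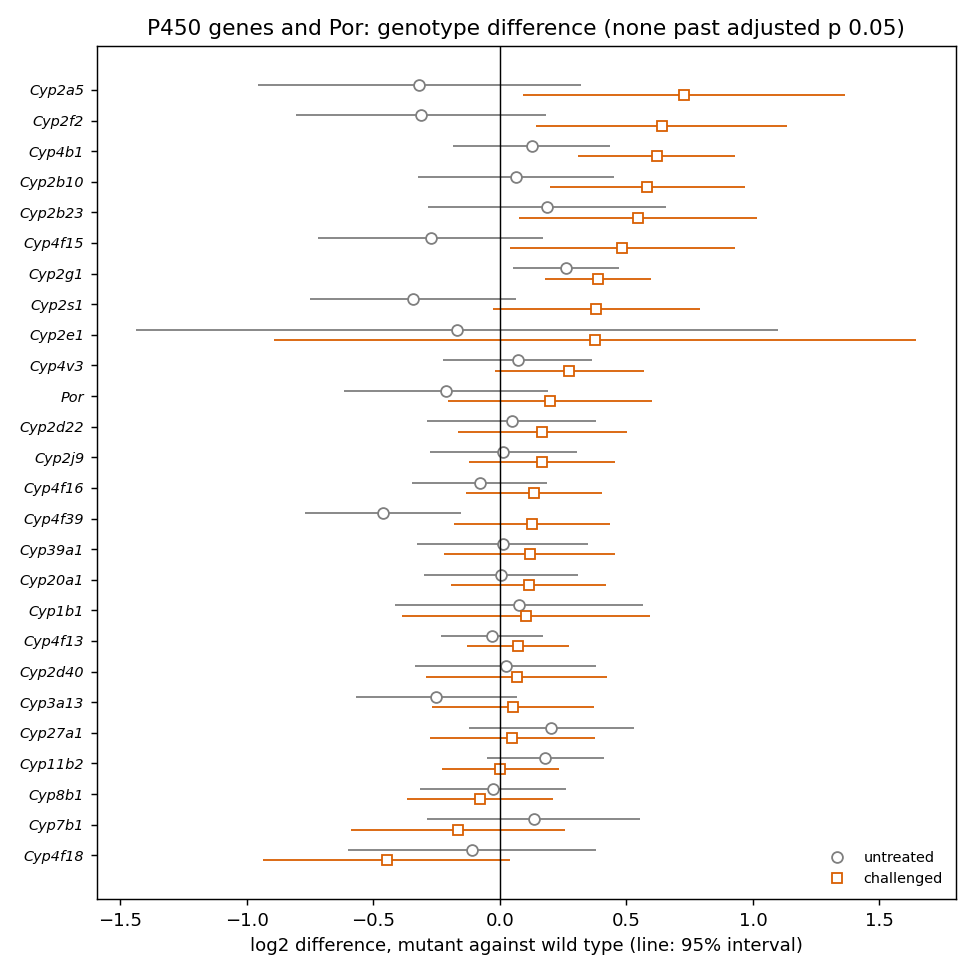
Log2 difference between mutant and wild-type mice (mutant minus wild type, n = 4 against 4 arrays) for each tested P450 gene and Por, untreated (grey circles) and challenged (orange squares), with the 95% interval of the limma fit. None of the 26 genes passed an adjusted p of 0.05 in either state. Cyp2g1 was tested through mutant arrays alone, so its interval supports nothing.

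The difference between both challenge responses, tested as an interaction, passed for 0 of 26 genes and for 0% of all features, with 6 under an unadjusted p of 0.05 (23.1%, beside 12%). The 6 were Cyp2f2, Cyp4f39, Cyp2s1, Cyp4f15, Cyp2a5 and Cyp4b1. For Cyp2f2 the mutant response exceeded the wild-type one by 0.95 (SE 0.33, 95% interval 0.25 to 1.65, limma adjusted p 0.283), for Cyp2a5 by 1.05 (adjusted p 0.352) and for Cyp4f39 by 0.59 (adjusted p 0.283). The call of Cyp2f2 and Cyp2a5 in wild type and not in mutants is therefore not shown to be a difference between genotypes.

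After challenge 8.3% of all features were higher and 9.38% lower in wild type, and 12.2% and 11.6% in mutants. Of 7 measured electron donors other than Por, 2 were higher and 0 lower in each genotype, with a median of 0.01 in both. They were Cyb5r1 (0.36 and 0.43, limma adjusted p 0.012 and 0.00362) and Fdxr, the reductase of the mitochondrial P450s (0.34 and 0.28, adjusted p 0.015 and 0.0305). Of 12 haem genes, Alad (0.62, adjusted p 0.0127) and Ppox (0.28, adjusted p 0.0277) were higher in wild type and Alas1, which makes the first haem precursor, was lower (-0.54, adjusted p 0.0404). In mutants Alad (0.65, adjusted p 0.0079) and Ppox (0.44, adjusted p 0.00181) were higher and none lower. Of the 3 P450s with other kinds of symbols, Cyp51 of cholesterol synthesis was lower in mutants (-0.35, adjusted p 0.0331) and Ptgis and Tbxas1 did not pass.

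Of 27 measured enzymes that take up P450 products, 9 were lower and 1 higher in wild type, and 5 were lower and 1 higher in mutants. The shares of all features were 9.38% lower and 8.3% higher in wild type, and 11.6% and 12.2% in mutants. The sulphotransferase Sult1a1 (-1.44 and -1.10, limma adjusted p 0.000371 and 0.00211) and the glutathione transferase Gstm1 (-1.04 and -0.65, adjusted p 0.0011 and 0.0139) were lower in both. Of 9 retinoid genes, 4 were lower and 2 higher in wild type and 1 lower and 2 higher in mutants, with Lrat, which stores retinol as ester, lower in both (-1.83 and -1.37, adjusted p 0.000455 and 0.0027).

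Of 21 nuclear receptors and other regulators of P450 genes, 12 were measured, and Ahr, Nr1i2, Nr1i3 and Ppara were not above background. For comparison, 9.38% of all features were lower and 8.3% higher in wild type, and 11.6% and 12.2% in mutants. In wild type 3 were lower, Rarb (-0.49, limma adjusted p 0.0163), Nr1h2 (-0.27, adjusted p 0.0206) and Rara (-0.31, adjusted p 0.0476), and in mutants Nr1h2 alone (-0.41, adjusted p 0.00166). Of 6 measured aryl hydrocarbon receptor targets, Scin was higher in both (2.49 and 1.33, adjusted p 2.84e-05 and 0.00289) and Nqo1 lower in mutants (-0.58, adjusted p 0.00616). Glucocorticoid-responsive genes were lower together, 10 of 13 in wild type and 9 of 13 in mutants, with medians of -1.57 and -1.10. Fkbp5 fell by 2.74 and 3.18 on the log2 scale (adjusted p 1.03e-05 and 2.17e-06). The scores of that list lay between -1.63 and -1.20 on all 8 challenged arrays and between -0.49 and 0.29 on the untreated ones, and its part in the P450 values was not tested.

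Some lists of genes of other cells moved in both directions and others in 1. Of all features, 9.38% in wild type and 11.6% in mutants were lower, and 8.3% and 12.2% were higher. After challenge in wild type and in mutants respectively, 4 and 1 of 13 alveolar type 2 genes were lower and 1 and 3 higher. Of 10 ciliated cell genes, 3 and 0 were lower and 0 and 1 higher, and of 14 endothelial genes 4 and 3 were lower and 0 higher. Of 9 alveolar macrophage genes, 2 and 1 were lower and 0 higher. The skeletal muscle list of 11 had 3 and 0 higher and the squamous list of 12 had 5 and 1 higher. Of the 4 measured hepatocyte genes, 2 and 3 were lower and 0 higher. Fga, a fibrinogen chain, was among the lower (-1.49 and -2.19, limma adjusted p 0.0289 and 0.00292). Of the 4 measured genes of steroid-producing cells, 1 and 1 were higher and 0 and 1 lower.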

How the data were processed

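The authors' deposited intensity values of 16 Illumina BeadChips were used, 4 arrays per group, 1 colour each. GenomeStudio 2011.1 is named per the submitters' processing notes. From the values, the authors subtracted a background and normalised quantiles, since 23.5% to 23.8% of each array lies under 0 and all share the upper quartile 221. The sources used here do not give the steps, the genome build or any slide or scan date. In a second deposited table, 16 signal and 16 detection p columns match no sample label, so only its probe symbols were used.

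Noise was set from values under 0 (SD 10.2), the design's detection p-values being of unmapped columns. Probes above 16.8 (percentile 95) on at least 4 of 16 arrays were kept (15869 of 25697). Normexp with an offset of 16 preceded log2. The platform annotation named 23978 probes and the authors' symbol column 1719, Por among them. The brightest kept probe stood for a gene (11747 features). Groups were compared with limma 3.58.1 (R 4.3.3), 1 coefficient per group, 2-sided, and Benjamini-Hochberg adjustment. Exact permutation tests were 2-sided, with 0.0286 the smallest p for 4 against 4 and 0.000408 within treatment. Each array is from another mouse. Their number limits the precision.

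Members and lists were chosen with earlier results of these data known. TTGCNNAA, TTGCATAA, TGTTTAC and TATAAA were searched after values were seen. Array values are given for members past the threshold, Por and further members near it or that differ between arrays. From other lists, up to 4 genes of smallest p are named, along with further list genes chosen after their values were seen. RefSeq promoters (GRCm38.p6) matched 21 of 26 tested genes. The fit was tested on simulated data. Shared replicate numbers did not pair arrays. Alternatives covered the background offset and limit, the filter, the probe rule, centring, weights, the replicate block, a muscle covariate and arrays left out.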

Additional observations from a re-analysis of the deposited data

Results flagged for a closer look

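In 5 of 104 groups of 4 arrays, 1 array lay far from the other 3, and chance alone gives about 1 in 20 such groups. Cyp2f2 read 6762 on wild-type challenged array 4, where the other arrays of the group read 12014 to 13281. Cyp2d22 read 697 on wild-type challenged array 3, the others 442 to 463. Cyp2b23 read 259 on mutant untreated array 3, the others 390.2 to 403. Cyp20a1 read 85.7 on mutant challenged array 2, the others 144 to 149. Cyp11b2, which is close to the noise, read 29.6 on mutant untreated array 1, the others 21.0 to 22.2.

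For a pair of genes, all 4 challenged wild-type arrays lay below the mean of untreated wild type and all 4 challenged mutant arrays lay above the mean of untreated mutants. The mutant response exceeded the wild-type one by 0.73 on the log2 scale for Cyp2s1 and by 0.76 for Cyp4f15. In limma neither difference passed (adjusted p 0.322 and 0.333), and for both the third untreated wild-type array was the lowest of its group.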

How the results depend on the processing

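In wild type the count of P450 genes called after challenge was 8 and ranged from 7 to 11 over the alternatives, and in mutants it was 9 and ranged from 8 to 11. Leaving out 1 array at a time gave 6 to 12 and 5 to 10. In the fit used throughout, 17.7% and 23.9% of all features were called, and their shares under the other settings are not given here. These ranges thus do not show whether the P450 genes moved apart from other genes. The count of 5 came without mutant untreated array 4, when Cyp4b1, Cyp4f13, Cyp2d22 and Cyp8b1 were lost. For mutant against wild type, untreated, leaving out 1 array gave 0 to 0, challenged 0 to 1 (1 without mutant challenged array 2, Cyp4b1), over both treatments 0 to 0, and for the difference between the challenge responses 0 to 0. Without the 3 arrays high in muscle genes 1 gene differed between challenged genotypes, Cyp4b1, and 1 over both treatments, again Cyp4b1 (0.51, limma adjusted p 0.0352). With the muscle score as a covariate 1 differed between challenged genotypes, Cyp2e1 (1.18, adjusted p 0.0467), and 1 over both treatments, Cyp2g1, which was tested through 6 mutant and 0 wild-type arrays above background, so that this call supports nothing. The number of members above background was 26 and became 24 with a limit at percentile 99, 23 with all 16 arrays required and 31 with at least 1.

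Cyp2f2, Cyp2b10, Cyp2b23, Cyp4b1, Cyp2d22 and Cyp4f18 kept their wild-type call under 14 of 14 alternatives and without each of the 16 arrays. Cyp27a1 lost it when the compared groups alone were fitted (adjusted p 0.0736) and without wild-type challenged array 2 or 4, and Cyp2a5 under 3 of 14. Among the mutant calls, leaving out 1 array ended that of Cyp4b1 for 3 arrays (mutant untreated 2 and 4, challenged 2), of Cyp2d22 for 5 (untreated 2 and 4, challenged 1, 2 and 4), of Cyp8b1 for 4 (untreated 1 and 4, challenged 1 and 4) and of Cyp4f13 for 8. No call changed sign. Same-numbered arrays of different groups did not deviate together (correlations -0.499 to 0.263 over 24 pairs, 5 of 16 arrays best matched by their own number). With the replicate block 8 genes were called in wild type, 7 of them shared, and 9 in mutants. The intensities of 4 arrays per group, 47 undetected genes and the understated folds of dim probes limit what can be seen.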
